A study of Lytechinus variegatus with 23 samples.

Results

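Untreated embryos of Lytechinus variegatus, a sea urchin, were compared between 24 and 18 hours post fertilisation (hpf), to describe which genes and functions switched on and off over this step. The comparison rests on 6 of the 23 libraries of the study, chosen by their labels alone: control embryos at 24 hpf, libraries A, B and C, and control embryos at 18 hpf, libraries A, B and C. Each library was made from mRNA of whole embryos, so all embryonic cell types contribute to it. The study also collected controls at 12 and 30 hpf and, for all 4 times, embryos treated with alizarin, a dye that binds calcium. The 3 control libraries of 12 hpf and the 3 of 30 hpf are used here for the neighbouring steps, and the alizarin libraries only as further groups in the fit. The labels give times and not stages. They name no strain or parents and do not say whether A, B and C came from separate cultures. The p-value of a gene rests on how far libraries of a group differ, estimated over all 8 groups of the fit, alizarin included. That of a share of counts rests on the 6 libraries. Part of the difference between libraries may be technical.

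In this urchin the interval lies in the passage from gastrula towards the early larva. The archenteron, the invaginated endoderm, is divided into foregut, midgut and hindgut and begins to differentiate. Primary mesenchyme cells, the skeleton-forming cells (PMCs), extend the calcite spicules. Mesoderm at the tip of the archenteron gives the coelomic pouches and the muscles around the foregut, and pigment and immune cells are already in place. The ectoderm forms the ciliary band, the apical organ and the first neurons, under the hyaline layer that coats the embryo. In Strongylocentrotus purpuratus, the urchin whose gene symbols the deposited table uses, many genes below have a described place in this network, and the roles given are background from that species or from vertebrates.

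The control libraries at 24 hpf held 10896670, 11730004 and 11681877 counted reads (A, B, C), and those at 18 hpf held 10038238, 9404030 and 10092561. On a principal component analysis of the 12 control libraries, the first component (52.5% of the variance) separated the 4 times. On the second (12.7%), library A stood apart from B and C at 24 hpf, with scores of -15.16, 61.72 and 56.31, and library C from A and B at 18 hpf, with -34.2 against 63.56 and 66.88. The share of counts in cytosolic ribosomal protein genes also varied within a time: it was 14.9%, 17.4% and 19.7% at 24 hpf and 9.44%, 8.57% and 14.9% at 18 hpf. The part of these differences in the results below was not tested. Genes of the skeleton (Sm50), midgut (Endo16) and pigment cells (Pks1) had reads in all 6 libraries, with the values given below. Counts of called genes are therefore given with single libraries left out where that moves them by over 1.5 times. Levels below are CPM, counts scaled to a common library total, computed on the library sizes scaled by the trimmed mean of M-values, listed in the order A, B and C. They are not divided by gene length, which the sources used here do not give, so that levels are compared within a gene and not between genes. Shares of counts are percentages of all counts of a library, ribosomal protein genes included and without that scaling. A share and the CPM of its genes can therefore move differently.

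Of 18419 genes tested, 741 were higher at 24 hpf (4.02% of those tested) and 177 were lower (0.961%), at an adjusted p under 0.05 in the edgeR quasi-likelihood test. Without adjustment, p was under 0.05 for 2249 higher and 1326 lower genes. The changes upward were also the larger ones: the median log2 fold change was 2.17 among the called rises and -1.16 among the called falls, against -0.02 over all genes tested. At least 2-fold changes numbered 714 upward and 137 downward, and at least 8-fold changes 204 upward and 6 downward. For 916 of the 918 called genes the 3 libraries of one time lay wholly above the 3 of the other, a pattern that 25.7% of all genes tested show. The median of the mean CPM was 26.18 at 24 hpf and 6.012 at 18 hpf among called rises. Among called falls it was 14.76 at 24 hpf and 35.45 at 18 hpf. Of these, 194 called rises and 57 called falls carry no informative symbol and are not described further. In whole embryos, more cells of a type and more RNA per cell cannot be told apart.

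**Figure D1:**
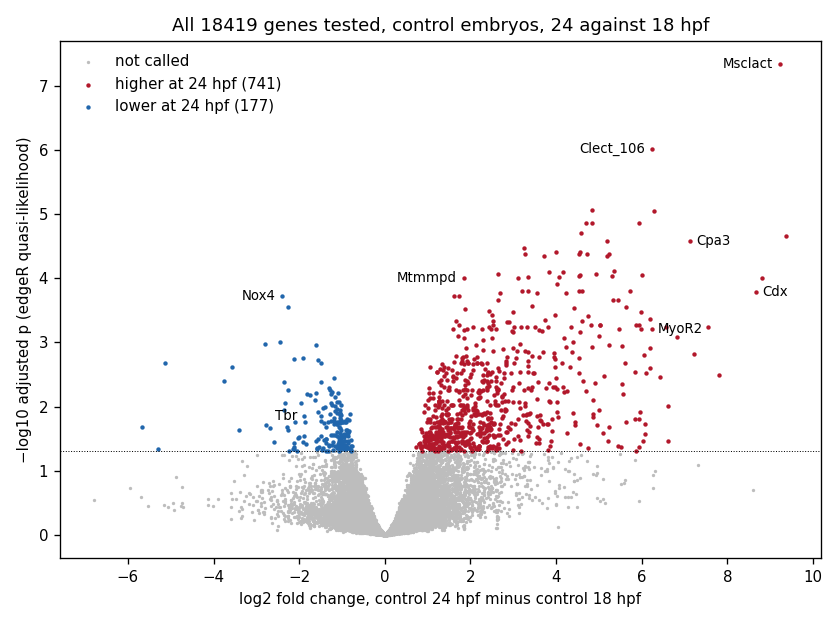
Every gene tested, with the log2 fold change of control embryos at 24 hpf minus 18 hpf on the horizontal axis and -log10 of the adjusted p on the vertical axis; the dotted line marks 0.05. The 741 higher genes (red) spread further from 0 than the 177 lower genes (blue), and Msclact and Clect_106 have the smallest adjusted p.

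The number of calls depended on which libraries were in the fit. It was 722 higher and 137 lower without 24 hpf A, 662 and 201 without 18 hpf C, and 605 and 105 with both of these left out, a setting added after the libraries had been seen to stand apart. It fell to 410 and 34 without 24 hpf B, 483 and 81 without 24 hpf C, 328 and 58 without 18 hpf A and 336 and 56 without 18 hpf B. Of the genes called in the full fit, 273 higher and 23 lower kept their call in all 6 of these single-library fits. The direction of the balance was the same in each of them, with more rises than falls.

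**Figure D2:**
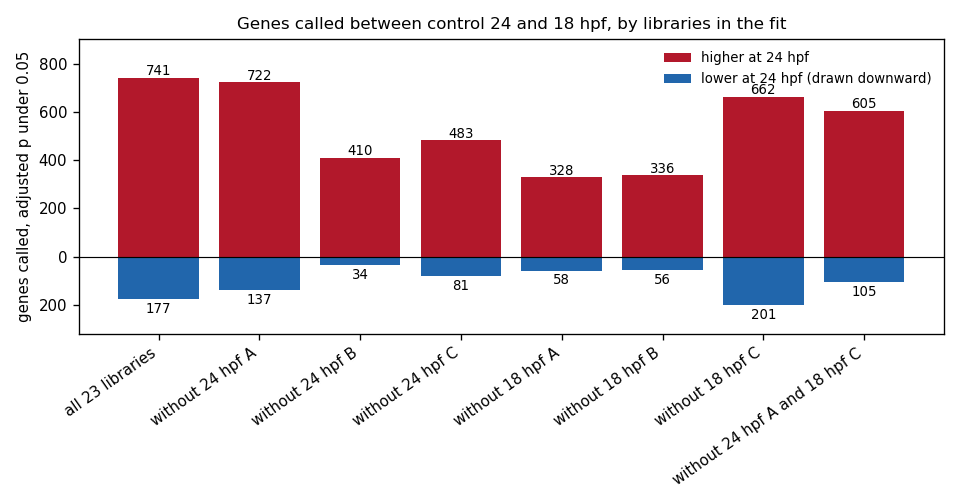
Number of genes called higher (red, upward) and lower (blue, downward) at 24 hpf than at 18 hpf in control embryos, with all 23 libraries in the fit and with single libraries left out. The fits without 24 hpf A or 18 hpf C are close to the full fit, and those without 18 hpf A or 18 hpf B make 328 and 336 upward calls against 741.

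The genes were also grouped in 50 lists by symbol. Among the lists of at least 15 tested genes, those with over 10% called higher were yolk and egg proteins (7 of 23 tested, 30.4%), hyalins (4 of 15, 26.7%), muscle and coelom (8 of 34, 23.5%), axonemal cilia (15 of 65, 23.1%), collagens, matrix and matrix proteases (14 of 80, 17.5%), the skeletal matrix (7 of 45, 15.6%), the Hedgehog pathway (3 of 20, 15%), forkhead genes (3 of 25, 12%), integrins, cadherins and adhesion (3 of 26, 11.5%), gut differentiation (7 of 64, 10.9%) and tubulins and kinesins (9 of 88, 10.2%), against 4.02% of all genes tested. Some lists of general cell machinery had no call in this fit. They were 81 cytosolic ribosomal proteins, 44 translation factors, 44 mitochondrial ribosomal proteins and 35 proteasome subunits. DESeq2 called 1 higher, 2 higher, 0 and 2 higher of them. Before adjustment, at p under 0.05, the higher and lower members numbered 8 and 0, 5 and 8, 0 and 2, and 2 and 1. Without 18 hpf C, 2 cytosolic ribosomal protein genes, 1 translation factor and 1 proteasome subunit were called higher, and without 24 hpf A 1 of each. Respiratory chain and cell cycle genes, also general machinery, had 6.56% and 8.57% called higher. No rise was called either in the lists of skeletal patterning signals and receptors, PMC regulators, actins and actin-binding genes, or germ line genes. The actin list leaves out Msclact and CskaI, by their symbols actins, which were called higher and are given below.

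**Figure D3:**
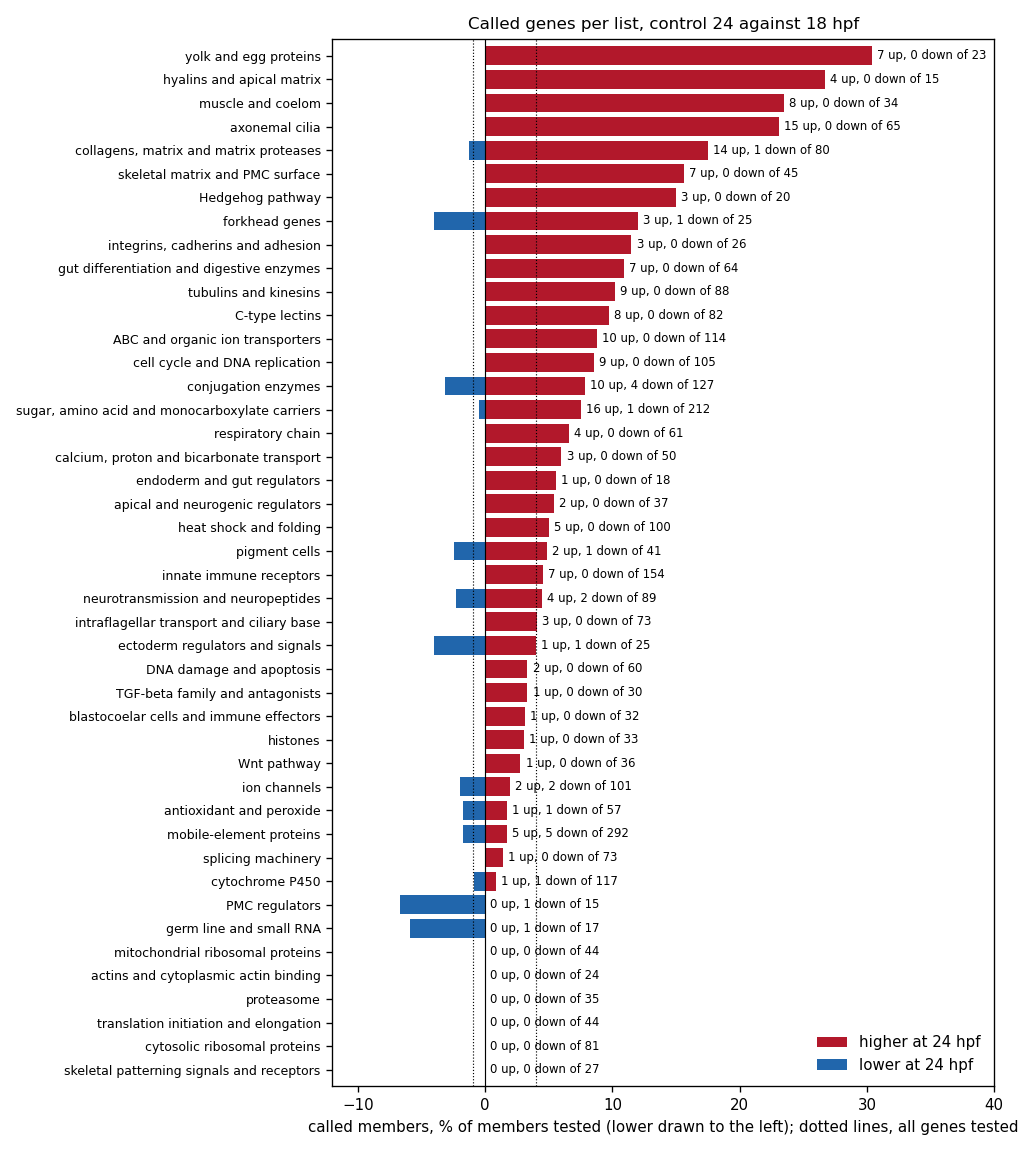
Called members of each list with at least 15 tested genes, as a percentage of the members tested, in control embryos at 24 hpf against 18 hpf: higher to the right, lower to the left, dotted lines at the shares over all genes tested (4.02% and 0.961%). Egg protein, hyalin, muscle, ciliary, matrix and skeletal lists sit to the right of the dotted line, and ribosomal, translation and proteasome lists are among those with 0 called members.

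The smallest adjusted p belonged to Msclact (L_var_19627), by its symbol a muscle actin and 1 of 4 IDs with that symbol, which may share reads. It had 437, 2280.2 and 1535 CPM at 24 hpf, against 2.45, 1.52 and 3.22 CPM at 18 hpf. All 3 libraries of 24 hpf were far above those of 18 hpf, with 24 hpf A the lowest of them, and the log2 fold change was 9.22 ± 0.63 (SE; adjusted p = 4.53e-08). Clect_106 (L_var_01239), a C-type lectin gene, had 211, 215 and 269.8 CPM at 24 hpf and 3.8, 2.8 and 2.51 CPM at 18 hpf, a log2 fold change of 6.24 ± 0.52 (adjusted p = 9.44e-07). Its libraries were alike within each time. Among called genes with an informative symbol, the largest gain in CPM was that of CskaI, by its symbol a cytoskeletal actin, with 5472 ± 1952 CPM at 24 hpf and 1837 ± 329 CPM at 18 hpf (SD, n = 3 each; adjusted p = 0.0349), but its call was lost in 5 of the 6 single-library fits, all but that without 24 hpf A (adjusted p up to 0.147). Fabp2L2, a fatty acid binding protein gene, had 702, 3312 and 2671 CPM at 24 hpf, against 333, 151 and 184 CPM at 18 hpf. Library A was again the lowest at 24 hpf and, at 18 hpf, the highest, yet the log2 fold change of 3.32 ± 0.51 (adjusted p = 0.000575) was called in all 6 single-library fits. Asp_9, which the table matches to serine proteases, had 67.8, 145 and 87.4 CPM at 24 hpf and 2.61, 1.04 and 0.239 CPM at 18 hpf (adjusted p = 0.00124), and Pdpi(cyclophilin)L4 averaged 39.7 ± 17.3 and 0.595 ± 0.444 CPM (24 and 18 hpf; adjusted p = 0.000333).

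A group of 30 called genes had a mean of at least 5 CPM at 24 hpf and under 0.5 CPM at 18 hpf, 23 of them with an informative symbol. The mirror rule for genes switched off found 2 genes, neither with an informative symbol. Among the 8 best expressed of the genes switched on were 2 homeobox genes of the gut. Cdx (L_var_01277), a ParaHox gene of the hindgut in S. purpuratus, had 30.2, 55.3 and 38.6 CPM at 24 hpf, against 0.0791, 0.08 and 0.119 CPM at 18 hpf. Those values rest on 1314 reads at 24 hpf and 3 reads at 18 hpf, a 468-fold ratio with an exact 95% interval of 159.9 to 2274 for counting error only. Isx (L_var_16848), named after the intestine-specific homeobox gene of mammals, had 31.9, 39.3 and 28.6 CPM at 24 hpf, against 0, 0 and 0.239 CPM at 18 hpf, and its ratio on 1051 and 2 reads was 562-fold (155 to 4645). Its second copy, L_var_16864, was detected in all 3 libraries of 24 hpf (8.23, 5.99 and 10.4 CPM) and had no read in any of 18 hpf, which makes it at least 90.5-fold higher at 24 hpf, taking 3 reads over the 18 hpf group as the floor. Copies under 1 symbol may share reads, so the split between them is uncertain.

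The other genes switched on had different roles. MyoR2 (L_var_25173), a basic helix-loop-helix factor named after a vertebrate muscle regulator, had 24.4, 19.1 and 30.5 CPM at 24 hpf and 0.0791, 0.24 and 0.716 CPM at 18 hpf. Ggt1_4, a gamma-glutamyltransferase gene, had 13.9, 15.2 and 11.7 CPM at 24 hpf and 0.0791, 0.32 and 0.239 CPM at 18 hpf. The carriers Slc39a12_2 and Slc10a2_14, of the zinc and bile acid carrier families, averaged 15.1 ± 9.3 and 11.9 ± 6.43 CPM at 24 hpf (SD, n = 3) and 0.385 ± 0.0229 and 0.252 ± 0.15 CPM at 18 hpf. GramarL2, which the table matches to serine proteases, averaged 13 ± 8.09 CPM at 24 hpf and 0.386 ± 0.321 CPM at 18 hpf. PpcL, also matched to proteases, was uneven at 24 hpf, with 0.294, 55.4 and 11.6 CPM, and almost silent at 18 hpf, with 0, 0.24 and 0 CPM. The lowest library of 24 hpf was A for PpcL, at a level close to the 18 hpf libraries. All 8 of these genes, and the second Isx copy, kept their calls in the 6 single-library fits.

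**Figure D4:**
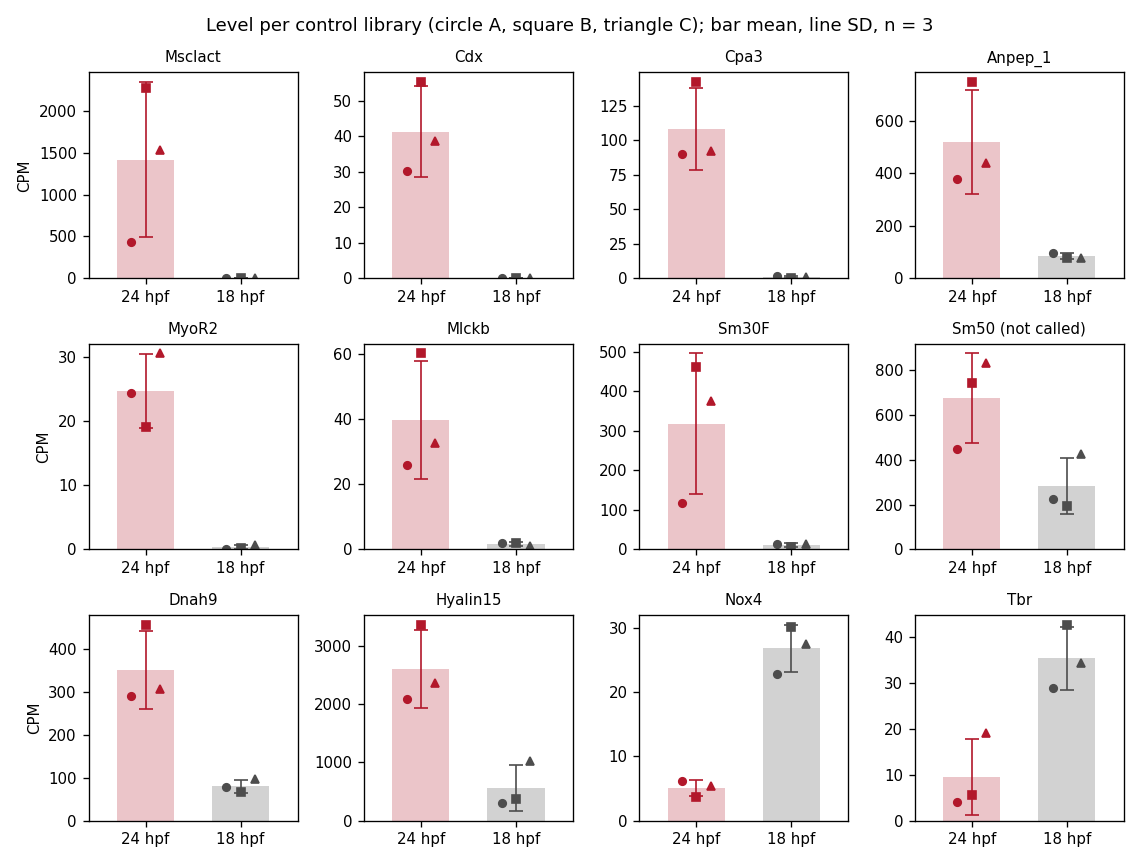
CPM of 12 genes in each control library at 24 hpf (red) and 18 hpf (grey), with the circle for A, the square for B and the triangle for C; bars are means and lines are SDs (n = 3). Msclact, Cdx, Cpa3, MyoR2, Mlckb and Sm30F lie near 0 at 18 hpf and well above it at 24 hpf, Nox4 and Tbr are lower at 24 hpf, and Sm50, which was not called, is higher in each library of 24 hpf than in each of 18 hpf.

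Calls among genes of gut function were upward, and the regulators of early endoderm gave no call other than Cdx. Of 64 tested genes for gut differentiation and digestive enzymes, 7 were higher, none was lower and the median log2 fold change was 0.6. Without adjustment, at p under 0.05, 18 were higher and 2 lower. The carboxypeptidase gene Cpa3 (L_var_05503) had 89.8, 142 and 92 CPM at 24 hpf, against 1.42, 0.32 and 0.478 CPM at 18 hpf, a log2 fold change of 7.13 ± 0.78 (adjusted p = 2.6e-05). The brush-border aminopeptidase gene Anpep_1 (L_var_07089) had 377, 746 and 437 CPM at 24 hpf and 97.4, 76.6 and 76.5 CPM at 18 hpf, a log2 fold change of 2.64 ± 0.37 (adjusted p = 0.000221). In both genes every library of 24 hpf was above every library of 18 hpf, with library B the highest at 24 hpf.

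The alkaline phosphatase gene Alpl_1 differed little between libraries of a time, with 150.2, 153 and 179 CPM at 24 hpf and 25.9, 21.2 and 24.7 CPM at 18 hpf (log2 fold change 2.75 ± 0.47, adjusted p = 0.00125). ManrC1A, a mannose receptor gene that marks the larval stomach in S. purpuratus, averaged 115 ± 42.3 CPM at 24 hpf and 9.44 ± 9.9 CPM at 18 hpf (SD, n = 3 each; adjusted p = 0.0134), and lost its call without 18 hpf A, 18 hpf B or 24 hpf B (adjusted p up to 0.0857). The other called members were Amy, an amylase gene, and 2 trypsin-like genes (TrypL), at 5.83, 16.6 and 5.12 CPM at 24 hpf and 1.5, 5.34 and 1.1 CPM at 18 hpf. All 3 lost their calls without 18 hpf A, 18 hpf B, 24 hpf B or 24 hpf C, and the last also without 18 hpf C. Here and below, list members given by their means alone were named because they passed the test, after their values were seen. The list's count was 3 without 18 hpf B or 24 hpf B, and 4 without 18 hpf A or 24 hpf C. Its genes took 0.507% ± 0.152 of all counts at 24 hpf and 0.269% ± 0.0338 at 18 hpf (SD, n = 3 each; two-sided exact permutation p = 0.1, the smallest that 3 against 3 allows).

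Among 18 tested regulators of endoderm, Cdx was the one called gene, and the median log2 fold change was -0.45. The list took 0.144%, 0.131% and 0.132% of counts at 24 hpf, against 0.204%, 0.225% and 0.188% at 18 hpf (two-sided exact permutation p = 0.1). Without 18 hpf C, 1 further member was called lower. FoxA, the forkhead regulator of endoderm, averaged 712 ± 133 CPM at 24 hpf and 1023 ± 152 CPM at 18 hpf (adjusted p = 0.343). Brachyury (Bra), which marks the blastopore and mouth regions in urchins, averaged 146 ± 37.6 CPM at 24 hpf and 98 ± 22.3 CPM at 18 hpf (adjusted p = 0.286). Endo16, a secreted protein gene of the midgut, had 938, 2110.1 and 1874 CPM at 24 hpf and 459, 579 and 544 CPM at 18 hpf. Its groups did not overlap, but the log2 fold change of 1.64 ± 0.55 did not pass (adjusted p = 0.0898). DESeq2 and the fit of the 12 control libraries alone did call it.

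Calls among muscle and coelom genes were upward, and their count was the same in each of the 6 single-library fits. Of 34 tested, 8 rose and none fell, with a median log2 fold change of 0.71. Without adjustment, 12 were higher and 3 lower at p under 0.05. The summed share of counts of the list was 0.265% ± 0.0109 at 24 hpf and 0.26% ± 0.0395 at 18 hpf (SD, n = 3 each; two-sided exact permutation p = 1). With cytosolic ribosomal protein genes left out of the total, the mean shares were 0.32% and 0.291% (24 and 18 hpf). Mlckb (L_var_02414), a myosin light chain kinase gene, had 25.9, 60.2 and 32.8 CPM at 24 hpf and 2.06, 1.92 and 1.07 CPM at 18 hpf (log2 fold change 4.52 ± 0.58, adjusted p = 9.32e-05), and its neighbour in name Mlcka averaged 202 ± 49.5 and 59.3 ± 13.1 CPM (24 and 18 hpf; SD, n = 3 each). SoxE (L_var_17157), a coelomic pouch regulator in S. purpuratus, had 27.5, 67.5 and 39.2 CPM at 24 hpf and 6.09, 4.48 and 13.6 CPM at 18 hpf (log2 fold change 2.48 ± 0.39, adjusted p = 0.000626). FoxL1, a forkhead gene active in urchin myoblasts, had 35.7, 52.1 and 59.8 CPM at 24 hpf and 9.33, 7.92 and 15.9 CPM at 18 hpf (log2 fold change 2.16 ± 0.39, adjusted p = 0.00206).

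The other members are genes of the actin and myosin cytoskeleton. The myosin heavy chain gene Myh9/Myh10/Myh11 averaged 114 ± 38.2 CPM at 24 hpf and 36.1 ± 3.33 CPM at 18 hpf (log2 fold change 1.65 ± 0.29, adjusted p = 0.00161). The 2 actinin copies, which cross-link actin filaments, averaged 209.6 and 46 CPM at 24 hpf and 101 and 19.8 CPM at 18 hpf. MyoR2, described above, completes the 8. A further gene outside the list, named My18A putative homolog and matched by the table to a myosin heavy chain, had 116, 441 and 216 CPM at 24 hpf and 6.01, 6.64 and 7.76 CPM at 18 hpf (log2 fold change 5.24 ± 0.61, adjusted p = 4.16e-05). As with Msclact, library A was the lowest and B the highest at 24 hpf.

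Calls among effectors of the skeleton were upward, with a median log2 fold change of 0.81 over 45 tested and none called lower (18 higher and 1 lower before adjustment, p under 0.05). The PMC regulators gave 1 call, downward, while 9 of 15 tested had a positive fold change. Their median was 0.17, with 3 higher and 2 lower before adjustment (p under 0.05). The 7 called skeletal matrix and PMC surface genes were led by Sm30F (L_var_26911), a spicule matrix gene, with 118, 460.3 and 375 CPM at 24 hpf and 12.8, 5.6 and 13.4 CPM at 18 hpf (log2 fold change 4.91 ± 0.95, adjusted p = 0.0043). Msp130r2 (L_var_22350), a relative of the PMC surface glycoprotein Msp130, had 447, 912 and 636 CPM at 24 hpf and 96, 64 and 189 CPM at 18 hpf (log2 fold change 2.51 ± 0.38, adjusted p = 0.000461). Msp130r4, of the same family, had 31.3, 25.7 and 22.4 CPM at 24 hpf and 2.93, 4.64 and 8.84 CPM at 18 hpf (adjusted p = 0.00133). These 3 kept their calls in all 6 single-library fits.

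The other called skeletal genes were less firm. C-lectin/PMC1, a spicule matrix lectin, averaged 67 ± 29.3 CPM at 24 hpf and 13.8 ± 9.58 CPM at 18 hpf (adjusted p = 0.0183), Sm32 averaged 147 ± 44.1 and 65.1 ± 16.6 CPM (24 and 18 hpf; adjusted p = 0.0376), and both lost their calls without 18 hpf A, 18 hpf B, 24 hpf B or 24 hpf C. Cara7LA, a carbonic anhydrase gene, had 110.3, 97.6 and 118 CPM at 24 hpf and 23.1, 21.4 and 32.5 CPM at 18 hpf. Its groups lay far apart, yet its adjusted p, 0.0419 with all libraries, was 0.066 to 0.157 in the 6 single-library fits. The call was thus lost whichever library was left out, while the log2 fold change stayed at 1.97 to 2.29. Kirrel2L_6, named after an adhesion protein, averaged 5.56 CPM at 24 hpf and 1.68 CPM at 18 hpf and lost its call without 18 hpf A, 18 hpf B, 18 hpf C or 24 hpf B. The list's count was 3 without 18 hpf A and 4 without 18 hpf B, 24 hpf B or 24 hpf C.

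The best known skeletal genes did not pass. Sm50, a main spicule matrix gene, had 450.3, 741 and 834 CPM at 24 hpf and 224, 195 and 426 CPM at 18 hpf, with no overlap between the times and a log2 fold change of 1.26 ± 0.42 (adjusted p = 0.0897). It was called by DESeq2 and without 18 hpf C (adjusted p = 0.0408). Msp130 averaged 1358 ± 400.4 CPM at 24 hpf and 797 ± 267 CPM at 18 hpf (adjusted p = 0.238), and Sm30A 5272 ± 1509 and 2123 ± 1133 CPM (24 and 18 hpf; adjusted p = 0.372). Over the whole list, skeletal genes took 1.39% ± 0.281 of counts at 24 hpf and 0.85% ± 0.0689 at 18 hpf (SD, n = 3 each; two-sided exact permutation p = 0.1).

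Among 15 tested PMC regulators, Tbr (L_var_02106), a T-box factor of the PMC network, was called lower: it had 4.02, 5.55 and 19.1 CPM at 24 hpf, against 29, 42.8 and 34.5 CPM at 18 hpf (log2 fold change -1.89 ± 0.44, adjusted p = 0.0138). Library C stood above A and B at 24 hpf, and the call was lost without 18 hpf B, 24 hpf A or 24 hpf B (adjusted p up to 0.0916). Alx1, the factor at the top of the PMC network, had 10.6, 16.2 and 22.2 CPM at 24 hpf and 3.16, 5.84 and 6.33 CPM at 18 hpf and did not pass (log2 fold change 1.68 ± 0.53, adjusted p = 0.0694), though DESeq2 called it higher. None of 27 tested genes for skeletal patterning signals and receptors was called (3 higher and 3 lower before adjustment, p under 0.05), with 1 called higher by DESeq2 and 1 without 18 hpf C. Their share of counts was 0.0644% ± 0.00323 at 24 hpf and 0.0848% ± 0.0149 at 18 hpf (SD, n = 3 each; two-sided exact permutation p = 0.1). With cytosolic ribosomal protein genes left out of the total, the mean shares were 0.0779% and 0.095% (24 and 18 hpf). Vegf3, the ectodermal ligand that guides PMCs, averaged 5.91 ± 0.159 CPM at 24 hpf and 9.24 ± 3.28 CPM at 18 hpf (adjusted p = 0.265).

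Calls among genes of motile cilia were upward. Of 65 tested axonemal genes, 15 were higher and none was lower, 47 had a positive fold change, 27 were higher and 1 lower before adjustment (p under 0.05), and the median log2 fold change was 0.34. The list took 0.553% ± 0.0151 of counts at 24 hpf and 0.571% ± 0.116 at 18 hpf (SD, n = 3 each; two-sided exact permutation p = 0.9). With cytosolic ribosomal protein genes left out of the total, its mean share was 0.669% at 24 hpf and 0.638% at 18 hpf. Dnah9 (L_var_17364), an outer arm dynein heavy chain gene, had 289.8, 456 and 306 CPM at 24 hpf and 78.8, 65.3 and 95.7 CPM at 18 hpf (log2 fold change 2.13 ± 0.36, adjusted p = 0.00108). Dnah1_3 (L_var_17485), an inner arm dynein heavy chain gene, had 130.0, 144 and 141 CPM at 24 hpf and 33.4, 34.8 and 56.2 CPM at 18 hpf (log2 fold change 1.74 ± 0.27, adjusted p = 0.000528). Libraries of the 2 times did not overlap in either gene. Dnah9L, named as a relative of Dnah9, averaged 41.4 ± 4.57 CPM at 24 hpf and 13.7 ± 2.15 CPM at 18 hpf (adjusted p = 0.000607). Dynein heavy chains gave 8 of the 15 calls and IDs with the symbol Hydin 5.

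Hydin_2 (L_var_03155), which encodes a central pair protein, had 43.2, 72.8 and 64.7 CPM at 24 hpf and 8.86, 8.64 and 14.6 CPM at 18 hpf (log2 fold change 2.50 ± 0.41, adjusted p = 0.000866). The 5 called Hydin IDs may be pieces or copies of 1 gene. Spag17, also of the central pair, averaged 48.9 CPM at 24 hpf and 14.3 CPM at 18 hpf, and Armc4, needed to dock the outer arms, 176 and 98.8 CPM (24 and 18 hpf). Both lost their calls without 18 hpf A, 18 hpf B or 24 hpf C, and Spag17 also without 24 hpf B. FoxJ1 (L_var_17068), the forkhead factor that switches on motile cilium genes in vertebrates and urchins, had 172, 270.3 and 539 CPM at 24 hpf and 78.8, 91.2 and 111 CPM at 18 hpf (log2 fold change 1.81 ± 0.32, adjusted p = 0.00177). The axonemal count was 9 without 18 hpf A and 11 to 18 without each other library.

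Intraflagellar transport and ciliary base genes gave 3 calls of 73, a share of 4.11% close to that of all genes tested. Ift172_2, a subunit of the anterograde transport train, had 98.4, 140.0 and 138 CPM at 24 hpf and 37.9, 34.2 and 43 CPM at 18 hpf (adjusted p = 0.000802). The other 2 were Cep290 and Wdr19_2, at 42.9 ± 11.2 and 69.3 ± 27.9 CPM at 24 hpf (SD, n = 3) and 17 ± 3.83 and 36.5 ± 5.15 CPM at 18 hpf. Both lost their calls without 18 hpf A, 18 hpf C or 24 hpf C, Cep290 also without 24 hpf B and Wdr19_2 also without 18 hpf B. The count was 1 without 18 hpf A or 24 hpf C. Of 88 tubulins and kinesins, 9 were higher and none lower (median log2 fold change 0.74), 7 of them alpha tubulins. Atub1 averaged 729 CPM at 24 hpf and 315 CPM at 18 hpf, and Atub3 (L_var_09858) 29.9 ± 19.5 and 6.48 ± 2.11 CPM (24 and 18 hpf; SD, n = 3 each). Both lost their calls without 18 hpf A or 24 hpf C, and Atub1 also without 18 hpf B or 24 hpf B. Tubulin copies share long stretches of sequence, so the split of reads among them is uncertain. Their count was 1 without 18 hpf A, 2 without 18 hpf B and 3 without 24 hpf B or 24 hpf C.

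Most calls among genes of the hyaline layer and the extracellular matrix were upward. Of 15 tested hyalin and apical matrix genes 4 were higher, and the list took 0.665% ± 0.274 of counts at 24 hpf and 0.164% ± 0.0547 at 18 hpf (SD, n = 3 each; two-sided exact permutation p = 0.1). Hyalin15 (L_var_03194) had 2098, 3373 and 2368 CPM at 24 hpf and 303, 364 and 1022 CPM at 18 hpf (log2 fold change 2.22 ± 0.47, adjusted p = 0.00715). Egf/HyalinL5 (L_var_03258) had 1096, 2037 and 1287 CPM at 24 hpf and 168, 174 and 365 CPM at 18 hpf (log2 fold change 2.65 ± 0.49, adjusted p = 0.00251). At 18 hpf, library C was the highest in both, still under every library of 24 hpf. Hyalin15 lost its call without 18 hpf A or 18 hpf B. The 2 Hyalin2 copies averaged 1541 ± 747 and 1178 ± 625 CPM at 24 hpf and 348 ± 181 and 299 ± 194 CPM at 18 hpf, with calls lost without 18 hpf A, 18 hpf B or 24 hpf B. Egf/HyalinL5 kept its call in all 6 single-library fits, while the list's count was 1 without 18 hpf A or 18 hpf B and 2 without 24 hpf B.

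Of 80 tested collagens, matrix and matrix protease genes, 14 were higher and 1 was lower (median log2 fold change 0.53). The summed share of the list was nonetheless lower in each library of 24 hpf, at 1.07%, 1.1% and 0.987% of counts, against 1.18%, 1.17% and 1.19% at 18 hpf (two-sided exact permutation p = 0.1). With cytosolic ribosomal protein genes left out of the total, the mean shares were closer, at 1.27% and 1.33% (24 and 18 hpf). Mtmmpd (L_var_05352), by its symbol a membrane-type matrix metalloprotease, differed little between libraries of a time, with 53.3, 54.3 and 49.6 CPM at 24 hpf and 13.8, 16.5 and 13.5 CPM at 18 hpf (log2 fold change 1.84 ± 0.24, adjusted p = 9.71e-05). Timp4, an inhibitor of such proteases, averaged 34.3 ± 5.85 CPM at 24 hpf and 9.29 ± 2.42 CPM at 18 hpf (adjusted p = 0.00456). The 2 fibrillar collagen copies named FcolI/II/IIIf averaged 449.6 ± 181 and 237 ± 114 CPM at 24 hpf and 70.9 ± 31.6 and 43.1 ± 15.1 CPM at 18 hpf (adjusted p = 0.00276 and 0.00307). The collagen gene Colp3a and the laminin alpha gene LamaLf reached 979 and 898 CPM at 24 hpf, against 283 and 238 CPM at 18 hpf, and both lost their calls without 18 hpf A, 18 hpf B, 24 hpf B or 24 hpf C. The one fall of the list was Col, given below. The list's count of rises was 4 without 18 hpf A, 6 without 18 hpf B and 5 without 24 hpf B or 24 hpf C.

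Among 23 yolk and egg proteins, 7 were higher (median log2 fold change 1.01), and the list took 0.551% ± 0.13 of counts at 24 hpf and 0.312% ± 0.0666 at 18 hpf (SD, n = 3 each; two-sided exact permutation p = 0.1). Vtgn2 (L_var_18948), by its symbol a vitellogenin, had 1069.8, 1669.7 and 1075 CPM at 24 hpf and 164, 205 and 461 CPM at 18 hpf (log2 fold change 2.20 ± 0.45, adjusted p = 0.00552). A second Vtgn2 ID, L_var_18952, averaged 70 ± 14.4 and 13.5 ± 6.42 CPM (24 and 18 hpf; adjusted p = 0.00207), and both kept their calls in the single-library fits. Ebr1, named after the egg receptor for the sperm protein bindin, averaged 3689 ± 639 CPM at 24 hpf and 1712 ± 802 CPM at 18 hpf (adjusted p = 0.0384). It lost its call without 18 hpf A, 18 hpf B, 24 hpf B or 24 hpf C (adjusted p up to 0.183). YP30/FascL, a yolk protein gene, averaged 17.7 ± 5.64 CPM at 24 hpf and 3.04 ± 1.69 CPM at 18 hpf (call lost without 18 hpf B, 18 hpf C or 24 hpf B). Of the 10 tested IDs of this yolk protein stem, 2 rose, and the median log2 fold change was -1.78. The 4 IDs of Yp303 averaged 3.72 to 14.9 CPM at 24 hpf and 45.5 to 54.7 CPM at 18 hpf, without a call (adjusted p of 0.292 to 0.448). The list's count was 3 without 24 hpf B and 4 without 18 hpf A, 18 hpf B or 24 hpf C. In a related group, Rej9, named after the sperm receptor for egg jelly, had 351, 748 and 614 CPM at 24 hpf and 47.9, 35.6 and 92.3 CPM at 18 hpf (adjusted p = 0.0169), with its call lost without 18 hpf A, 18 hpf B or 24 hpf B.

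Transport and conjugation genes had calls in both directions. Of 114 ABC and organic ion transporters, 10 rose (8.77%, against 4.02% of all genes tested) and none fell, while the list took 0.189% ± 0.0274 of counts at 24 hpf and 0.22% ± 0.0419 at 18 hpf (SD, n = 3 each; two-sided exact permutation p = 0.3). Abcb4b (L_var_22509), an ABC transporter of the multidrug resistance family, had 49.7, 72 and 39 CPM at 24 hpf and 3.08, 2 and 3.94 CPM at 18 hpf (log2 fold change 4.16 ± 0.52, adjusted p = 8.08e-05). Abcb1b_1, of the same family, averaged 10.4 ± 4.25 CPM at 24 hpf and 0.41 ± 0.296 CPM at 18 hpf (adjusted p = 0.000697), and the 6 single-library fits called 7 to 9 members of the list. Of 212 sugar, amino acid and monocarboxylate carriers, 16 rose and 1 fell (7.55% and 0.472%, against 4.02% and 0.961% of all genes tested). The carrier rises numbered 4 without 18 hpf A or 18 hpf B and 7 without 24 hpf B. No member was called lower in the single-library fits other than that without 24 hpf A, where 2 were. SLc5a9 (L_var_01256), of the sodium-coupled sugar carriers, was nearly silent at 18 hpf (0, 0 and 0.239 CPM) and had 2.16, 12.4 and 6.53 CPM at 24 hpf, a 121-fold ratio on 227 and 2 reads (exact 95% interval 33.2 to 1008). Slc5a9L2 averaged 25.3 ± 5.57 CPM at 24 hpf and 1.53 ± 1.65 CPM at 18 hpf (adjusted p = 0.00529). Slc1a1_1, of the glutamate carrier family, averaged 17.6 ± 2.85 CPM at 24 hpf and 3.93 ± 1.33 CPM at 18 hpf (adjusted p = 0.0132; lost without 18 hpf A or 18 hpf C). The carrier Gat, matched by the table to a transporter of the neurotransmitter GABA, had 14.3, 28 and 13.6 CPM at 24 hpf and 0.949, 0.72 and 0.597 CPM at 18 hpf (log2 fold change 4.59 ± 0.49, adjusted p = 1.94e-05).

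Of 127 conjugation enzymes, which attach sugars, sulfate or glutathione to small molecules, 10 rose and 4 fell (7.87% and 3.15%, against 4.02% and 0.961% of all genes tested). The glucuronosyltransferase gene Ugt1L_8 had 30.5, 32.1 and 10 CPM at 24 hpf and 2.29, 1.68 and 3.22 CPM at 18 hpf (adjusted p = 0.000156). Mgst1, a membrane glutathione transferase gene, averaged 5.09 ± 0.364 CPM at 24 hpf and 0.504 ± 0.2 CPM at 18 hpf (adjusted p = 0.00142). The sulfotransferase genes Sult1c_1 and Sult1c_2 moved in opposite directions. Sult1c_1 (L_var_20487) had 15.1, 8.28 and 2.45 CPM at 24 hpf and 0.554, 0.4 and 1.67 CPM at 18 hpf, and Sult1c_2 (L_var_21319) had 859, 225 and 461 CPM at 24 hpf and 1387, 1332 and 3017 CPM at 18 hpf (log2 fold changes 3.35 ± 0.86 and -1.89 ± 0.50). Both calls were uncertain: that of Sult1c_1 was lost without 18 hpf A, 18 hpf B, 24 hpf A or 24 hpf B and that of Sult1c_2 without 18 hpf C, 24 hpf B or 24 hpf C. The list had 5 rises without 18 hpf A or 18 hpf B and 6 without 24 hpf B. It had 2 falls without 18 hpf A or 24 hpf A, 1 without 18 hpf B or 18 hpf C and 0 without 24 hpf B or 24 hpf C.

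Lectins and scavenger receptors are families of the urchin immune repertoire. Of 82 tested C-type lectins, 8 were higher (9.76%, against 4.02% of all genes tested) and none was lower, and the single-library fits called 7 to 10. Beside Clect_106, Clect_76 had 34.4, 51.7 and 68.5 CPM at 24 hpf and 2.06, 0.48 and 2.63 CPM at 18 hpf (adjusted p = 8.51e-05). Of 154 innate immune receptors 7 were higher, 4.55% and thus near the share over all genes, while the list took 0.391% ± 0.0472 of counts at 24 hpf and 0.212% ± 0.0465 at 18 hpf (SD, n = 3 each; two-sided exact permutation p = 0.1). The 2 copies of Srcr179, a scavenger receptor cysteine-rich gene, had 87, 68.8 and 53.4 CPM (L_var_14442) and 69.3, 49.9 and 58.1 CPM (L_var_14526) at 24 hpf, against 6.88, 3.36 and 5.61 and 4.9, 5.44 and 6.09 CPM at 18 hpf (adjusted p = 4.54e-05 and 0.000266). That list had 4 calls without 18 hpf A or 18 hpf B and 3 without 24 hpf B. Of 32 blastocoelar cell genes 1 rose (3.12%, against 4.02% of all genes tested). It was Mif1, a macrophage migration inhibitory factor gene, with 67.4 ± 38 CPM at 24 hpf and 10.1 ± 5.8 CPM at 18 hpf. The call was lost without 18 hpf B or 24 hpf B, and 2 genes of the list were called without 18 hpf C or 24 hpf C.

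Pigment cell genes gave 2 rises and 1 fall of 41 tested (4.88% and 2.44%, against 4.02% and 0.961% of all genes tested). The called genes were Fmo5_5, a flavin monooxygenase gene, and both sulfotransferase genes above, Sult1c_1 upward and Sult1c_2 downward. Fmo5_5 rose, with 32.7 ± 8.58 CPM at 24 hpf and 11.3 ± 1.96 CPM at 18 hpf. Fmo5_5 lost its call without 18 hpf A, 18 hpf B, 24 hpf B or 24 hpf C. Without 18 hpf A, 18 hpf B or 24 hpf B there was no rise, and without 24 hpf A or 24 hpf C there was 1. No member was called lower without 24 hpf B or 24 hpf C. Pks1, the polyketide synthase of the red pigment, had 2188, 1734 and 1699.7 CPM at 24 hpf and 1308, 904 and 2859.5 CPM at 18 hpf, with overlap between the times (adjusted p = 0.884). Gcm, the regulator of pigment cell fate, averaged 156 ± 15.9 CPM at 24 hpf and 118 ± 87.3 CPM at 18 hpf (adjusted p = 0.73). For both genes library C was the highest at 18 hpf.

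Neural effector genes had calls in both directions. Of 89 tested neurotransmission and neuropeptide genes 4 were higher and 2 were lower, where 4.49% is near the 4.02% of all genes called higher and 2.25% rests on 2 genes (0.961% of all genes). Their share of counts was 0.284% ± 0.0485 at 24 hpf and 0.186% ± 0.00933 at 18 hpf (SD, n = 3 each; two-sided exact permutation p = 0.1). Pcsk2 (L_var_13346), the convertase that processes neuropeptide precursors, had 8.72, 11.1 and 9.49 CPM at 24 hpf and 1.5, 1.44 and 1.55 CPM at 18 hpf (log2 fold change 2.70 ± 0.37, adjusted p = 0.000166). Gria1, a glutamate receptor gene, had 69.8, 23.4 and 27.5 CPM at 24 hpf, with A the highest, and 3.87, 2.4 and 5.61 CPM at 18 hpf (adjusted p = 0.00285). In the other direction, the nicotinic receptor gene Chrna6L (L_var_14228) had 48.7, 46 and 32.7 CPM at 24 hpf, against 175, 132 and 124 CPM at 18 hpf (log2 fold change -1.76 ± 0.37, adjusted p = 0.00652). The dopamine receptor-like gene Drd1L_1 had 15.3, 9.08 and 12 CPM at 24 hpf, against 38.6, 37.3 and 30.8 CPM at 18 hpf (log2 fold change -1.55 ± 0.28, adjusted p = 0.00188). All 4 of these genes kept their calls in the single-library fits. The list's count of rises was 2 without 18 hpf A or 18 hpf B.

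Among 37 apical and neurogenic regulators 2 rose (5.41%, against 4.02% of all genes tested) and none fell. The calls were the 2 IDs of Scratch, a zinc finger gene of neural cells. Neither had a read at 18 hpf, and with 24 and 23 reads at 24 hpf they were at least 8.55-fold and 8.2-fold higher there. The calls were lost without 18 hpf A or 18 hpf B, for L_var_03687 also without 24 hpf B, and for L_var_03928 also without 18 hpf C or 24 hpf C. In the fit without 24 hpf B, L_var_03928 was not called either. Without 24 hpf C, 2 members were called lower. FoxQ2_1, the forkhead gene of the apical plate, had 35.2, 18.2 and 105 CPM at 24 hpf and 76.9, 114 and 139.8 CPM at 18 hpf (adjusted p = 0.294). It was called lower without 24 hpf C, its highest library of that time (adjusted p = 0.0442).

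Signalling lists gave 0 to 3 calls each. Of 20 Hedgehog pathway genes 3 rose (15%, against 4.02% of all genes tested): the receptor Ptc with 33.1, 51.4 and 36.5 CPM at 24 hpf and 14.8, 15.5 and 14.7 CPM at 18 hpf (adjusted p = 0.0114), and the dispatched genes DispLA2_1 and DispLB2, whose products release the ligand, with 16.4 ± 7.69 and 2.55 ± 1.46 CPM at 24 hpf and 4.07 ± 0.799 and 0.2 ± 0.175 CPM at 18 hpf. Without 18 hpf A none of the 3 was called, and Ptc was not called without 18 hpf B or 24 hpf B either. Of 36 Wnt pathway genes 1 rose (2.78%, against 4.02% of all genes tested). It was Notum, an enzyme that inactivates Wnt ligands, with 19.8, 39.3 and 34 CPM at 24 hpf and 12.3, 12.5 and 13.5 CPM at 18 hpf (adjusted p = 0.0225; lost without 18 hpf A, 18 hpf B, 24 hpf B or 24 hpf C). Without 24 hpf A, 1 Wnt pathway gene was called lower. The Wnt list took 0.0864% ± 0.00287 of counts at 24 hpf and 0.122% ± 0.0157 at 18 hpf (SD, n = 3 each; two-sided exact permutation p = 0.1). With cytosolic ribosomal protein genes left out of the total, its mean shares were 0.105% and 0.136% (24 and 18 hpf). Of 30 genes of the TGF-β family and its antagonists 1 rose (3.33%, against 4.02% of all genes tested), with 2 called higher without 18 hpf C or 24 hpf A. It was Fstl5, a follistatin-like gene at 4.85 ± 0.67 CPM at 24 hpf and 0.875 ± 0.521 CPM at 18 hpf (adjusted p = 0.00289). Without 18 hpf C, 1 gene of that list was called lower. Its share of counts was 0.0934% ± 0.00505 at 24 hpf and 0.114% ± 0.0125 at 18 hpf for the whole list (SD, n = 3 each; two-sided exact permutation p = 0.1). With cytosolic ribosomal protein genes left out, the means were 0.113% and 0.128% (24 and 18 hpf). None of 13 Delta and Notch genes was called by edgeR (2 higher and 1 lower before adjustment, p under 0.05), where DESeq2 called 1 lower.

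Among ectoderm regulators and signals, 1 of 25 rose and 1 fell, FoxJ1 and Emx (4% each, against 4.02% and 0.961% of all genes tested). Emx, a homeobox gene, averaged 23.1 ± 4.78 CPM at 24 hpf and 42.5 ± 8.95 CPM at 18 hpf (log2 fold change -0.88 ± 0.25, adjusted p = 0.0426), a call lost in all single-library fits but that without 24 hpf C. Nodal, the ligand of the oral side, averaged 129 ± 26 and 101 ± 51.5 CPM (24 and 18 hpf; adjusted p = 0.633), and its target Gsc averaged 145 ± 48.7 and 67 ± 31.1 CPM (24 and 18 hpf; adjusted p = 0.0853). Gsc was called higher without 18 hpf C or 24 hpf A. Among 25 forkhead genes FoxJ1, FoxL1 and FoxI rose and FoxN2/3 fell. FoxI averaged 16.7 ± 3.04 CPM at 24 hpf and 4.72 ± 2.55 CPM at 18 hpf and lost its call without 18 hpf A, 18 hpf B, 24 hpf A or 24 hpf B. FoxN2/3, a regulator of early mesoderm in urchins, had 8.82, 13.3 and 7.86 CPM at 24 hpf, against 45.7, 42.1 and 18.3 CPM at 18 hpf (log2 fold change -1.82 ± 0.38, adjusted p = 0.00644). Without 18 hpf C 4 forkhead genes were called higher and without 24 hpf C 3 were called lower, while without 18 hpf A, 18 hpf B, 24 hpf A or 24 hpf B there were 2 rises.

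Genes of DNA replication and chromosome condensation gave rises, while the median of their list was close to 0. Of 105 tested cell cycle genes 9 rose (8.57%, against 4.02% of all genes tested) and none fell, with a median log2 fold change of -0.01. Rrm1 (L_var_00476), the large subunit of ribonucleotide reductase, had 1199, 801 and 1151 CPM at 24 hpf and 427, 481 and 528 CPM at 18 hpf (log2 fold change 1.13 ± 0.26, adjusted p = 0.0141). Top2a_1 (L_var_08203), a DNA topoisomerase gene, had 143, 192 and 233 CPM at 24 hpf and 83.6, 68.8 and 79.9 CPM at 18 hpf (adjusted p = 0.00256). The condensin subunit genes Ncapg, Ncapd2, Ncapd3 and Smc4 averaged 192, 194, 39.3 and 534 CPM at 24 hpf and 79.9, 94.6, 12.2 and 255 CPM at 18 hpf. All 4 lost their calls without 18 hpf A or 18 hpf B, Ncapd2, Ncapd3 and Smc4 also without 24 hpf B or 24 hpf C, and Smc4 also without 18 hpf C. The count was 2 without 18 hpf A or 24 hpf C, 1 without 18 hpf B and 4 without 24 hpf B, and 1 gene was called lower without 18 hpf A and 1 without 24 hpf C. Rrm1 lost its call without 18 hpf A, 18 hpf B or 24 hpf C, and Top2a_1 (L_var_08203) kept it. A second Top2a_1 ID, L_var_08248, averaged 237 ± 74.3 and 99.1 ± 11.3 CPM (24 and 18 hpf; adjusted p = 0.00874; lost without 18 hpf B or 24 hpf C).

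In the mitochondrial respiratory chain 4 of 61 genes rose (6.56%, against 4.02% of all genes tested). Atp5b (L_var_20500), the beta subunit of ATP synthase, had 2346, 4936 and 5369 CPM at 24 hpf and 899, 706 and 1229.8 CPM at 18 hpf (log2 fold change 2.16 ± 0.38, adjusted p = 0.00169). It kept its call throughout the single-library fits. The complex I subunits Ndufs1_1 and Ndufs4 averaged 378 ± 65.4 and 51.2 ± 14.4 CPM at 24 hpf and 182 ± 33.2 and 20.3 ± 7.58 CPM at 18 hpf, and lost their calls without 18 hpf A, 18 hpf B or 24 hpf C. The count was 1 without 18 hpf A or 18 hpf B and 2 without 24 hpf C. The 44 genes of the mitochondrial ribosome had a median log2 fold change of -0.38, 7 of them with a positive sign, and took 0.147% ± 0.0349 of counts at 24 hpf and 0.217% ± 0.00972 at 18 hpf (SD, n = 3 each; two-sided exact permutation p = 0.1).

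Cytosolic ribosomal proteins had a median log2 fold change of 0.71, with 79 of 81 positive, none called by edgeR, and 8 higher and 0 lower before adjustment (p under 0.05). Rps3, the member with the smallest adjusted p, had 3544, 7002 and 8405 CPM at 24 hpf and 1752, 1381 and 3377 CPM at 18 hpf (adjusted p = 0.0567). Its highest library of 18 hpf, C, came close to the lowest of 24 hpf, A. Together these genes took 17.3% ± 2.4 of counts at 24 hpf and 11% ± 3.41 at 18 hpf (SD, n = 3 each; two-sided exact permutation p = 0.2). Histones ran the other way in share, with 0.976% ± 0.105 at 24 hpf and 1.56% ± 0.263 at 18 hpf (exact permutation p = 0.1). Of 33 histones 1 was called, upward (3.03%, against 4.02% of all genes tested), and none without 18 hpf A. Splicing genes took 1.37% ± 0.12 at 24 hpf and 1.81% ± 0.0643 at 18 hpf (exact permutation p = 0.1). Of 73 in this list 1 was called, upward (1.37%, against 4.02% of all genes tested). It was Sf3a2, at 38.7 ± 21 CPM at 24 hpf and 15.1 ± 0.681 CPM at 18 hpf. The list does not hold Bat1 and Hnrpl, RNA-handling genes that were called lower and are given below. Without 18 hpf C 2 splicing genes were called lower and without 24 hpf A 1, and there was no rise without 18 hpf A, 18 hpf B, 24 hpf B or 24 hpf C.

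The 177 falls were of many kinds and smaller in size than the rises, with a median log2 fold change of -1.16 and 137 of them at least 2-fold. Nox4 (L_var_09400), an NADPH oxidase gene, had 6.17, 3.7 and 5.41 CPM at 24 hpf, against 22.8, 30.1 and 27.5 CPM at 18 hpf, and the smallest p of the falls named here (log2 fold change -2.39 ± 0.33, adjusted p = 0.000188). Rab8, a GTPase gene of vesicle traffic, had 12.8, 11.1 and 11.2 CPM at 24 hpf, against 37.1, 37.8 and 33 CPM at 18 hpf (log2 fold change -1.62 ± 0.27, adjusted p = 0.00108). Nt5c3, a nucleotidase gene, had 86.5, 70.8 and 113 CPM at 24 hpf, against 207, 245 and 216 CPM at 18 hpf (adjusted p = 0.00519). In each of these 3 genes the groups lay well apart, and the calls held in all 6 single-library fits.

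The falls that were largest in CPM, apart from Sult1c_2 above, included 4 IDs of RNA-handling genes, none of them in the splicing list. Nop58 (L_var_02732), a core protein of small nucleolar ribonucleoproteins, had 224, 191 and 255 CPM at 24 hpf, against 489, 541 and 468 CPM at 18 hpf (log2 fold change -1.16 ± 0.24, adjusted p = 0.00701; 0.0512 without 24 hpf B). The 2 IDs of Bat1, an RNA helicase of splicing and export, averaged 860.2 ± 159 and 399.8 ± 46.8 CPM at 24 hpf and 1947 ± 59.4 and 817 ± 68.1 CPM at 18 hpf (adjusted p = 0.015 and 0.0161). Both lost their calls without 18 hpf A or 24 hpf B. Hnrpl, an RNA-binding protein gene, averaged 1031 ± 192 CPM at 24 hpf and 2013 ± 292 CPM at 18 hpf (adjusted p = 0.0464) and was called in no single-library fit. The gene with the symbol Col (L_var_12046) averaged 69.3 ± 14.3 CPM at 24 hpf and 254 ± 60 CPM at 18 hpf (adjusted p = 0.0172; lost without 18 hpf A, 24 hpf A or 24 hpf B).

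Among the falls largest by fold change, Fn3f_9, by its symbol a gene with fibronectin type III domains, had 2.45, 1.85 and 2.45 CPM at 24 hpf, against 14.6, 17.8 and 14 CPM at 18 hpf (log2 fold change -2.77 ± 0.68, adjusted p = 0.0195), a call that of the 6 single-library fits only the one without 18 hpf C kept. The adrenergic receptor-like gene Adrb3L_1 averaged 1.87 ± 0.658 CPM at 24 hpf and 8.11 ± 1.68 CPM at 18 hpf (adjusted p = 0.0175; lost without 18 hpf B, 24 hpf B or 24 hpf C). The chondroitin sulfotransferase gene Chst11_13 averaged 14.8 ± 4.92 CPM at 24 hpf and 45.5 ± 6.22 CPM at 18 hpf (adjusted p = 0.00798; lost without 24 hpf B). C20orf152L_1 and Tmem104 averaged 1.52 ± 0.337 and 13.5 ± 0.854 CPM at 24 hpf and 7.77 ± 5.15 and 52.7 ± 11.1 CPM at 18 hpf, and kept their calls in the single-library fits, as did VwdeL_1 with 13.6 ± 4.38 CPM at 24 hpf and 38.2 ± 1.57 CPM at 18 hpf. The glucuronosyltransferase gene Ugt2b1_3 averaged 5.49 ± 1.89 CPM at 24 hpf and 22.4 ± 13.4 CPM at 18 hpf (adjusted p = 0.0305) and was called without 18 hpf C alone among the single-library fits. Tdrd7L, a tudor-domain gene and the one call of 17 germ line and small RNA genes, averaged 8 ± 1.81 CPM at 24 hpf and 16.8 ± 3.52 CPM at 18 hpf, and was likewise called without 18 hpf C alone. Of 292 mobile-element proteins 5 rose and 5 fell (1.71% each, against 4.02% and 0.961% of all genes tested), and their median log2 fold change was -0.4. The symbol GagpolL_10 was carried by 4 of the falls, of which L_var_17934 had 11.9, 14.4 and 18.5 CPM at 24 hpf, against 59.8, 77.3 and 30.8 CPM at 18 hpf (adjusted p = 0.00176). Repeated sequences of this kind may share reads. Their rises numbered 1 without 18 hpf A or 18 hpf B and 2 without 24 hpf B, and their falls 2 without 18 hpf A or 24 hpf A, 1 without 18 hpf B or 24 hpf B and 3 without 24 hpf C.

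The step was set beside the steps before and after it. In controls, 1558 genes rose and 1192 fell between 12 and 18 hpf, 741 rose and 177 fell between 18 and 24 hpf, and 132 rose and 39 fell between 24 and 30 hpf. Adjacent steps share the libraries of the time between them, so their values are given side by side and the difference between steps was tested in the model. The 18 to 24 hpf change differed from the 12 to 18 hpf change for 291 genes (1.58% of those tested), more positive for 90 and more negative for 201. It differed from the 24 to 30 hpf change for 22 genes (0.119%), more positive for 21 and more negative for 1. The first count was 134 without 18 hpf A, 176 without 18 hpf B and 482 without 12 hpf C. It was 155 with both 18 hpf C and 24 hpf A left out. The second was 8 without 18 hpf A, 7 without 30 hpf B, 4 without 24 hpf C and 5 without any 1 of 18 hpf B, 24 hpf B, 30 hpf A or 30 hpf C. It was 45 without 24 hpf A and 37 with both 18 hpf C and 24 hpf A left out.

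Some genes dipped at 18 hpf and came back. Mtmmpd averaged 76.9 ± 11.3, 14.6 ± 1.66, 52.4 ± 2.47 and 58.7 ± 1.34 CPM at 12, 18, 24 and 30 hpf (SD, n = 3 each). Its log2 fold change was -2.40 ± 0.24 over the earlier step and 1.84 ± 0.24 from 18 to 24 hpf, a difference of 4.24 ± 0.45 (adjusted p = 2.69e-05). Msp130r2 averaged 345 ± 32.4, 116 ± 65.1, 665 ± 234 and 552 ± 59.9 CPM at the 4 times, a difference between steps of 4.08 ± 0.69 (adjusted p = 0.00241). Dnah1_3 averaged 84.8 ± 9.76, 41.5 ± 12.8, 139 ± 7.59 and 149.8 ± 14.5 CPM, a difference of 2.77 ± 0.48 (adjusted p = 0.00302). All 3 of these genes were called lower at 18 than at 12 hpf and kept the call of the difference in every single-library fit. Dnah9 averaged 114, 79.9, 351 and 412 CPM. Its change before 18 hpf was not called (adjusted p = 0.353), and the difference of 2.64 ± 0.63 (adjusted p = 0.0344) was lost without any 1 of 12 hpf A, 12 hpf B, 18 hpf A, 18 hpf B, 18 hpf C or 24 hpf B. Rfesd, a Rieske-domain gene, fell between 12 and 18 hpf (adjusted p = 5.43e-07) and was not called over the next 2 steps, at 224, 9.73, 8.75 and 13 CPM (difference 4.36 ± 0.68, adjusted p = 0.00117).

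Another set had risen before 18 hpf and changed less after it. Mgam_3, a maltase-glucoamylase gene of carbohydrate digestion, averaged 0.0433 ± 0.0749, 83.9 ± 20.6, 179.7 ± 57.9 and 313 ± 42 CPM at 12, 18, 24 and 30 hpf. Its log2 fold change was 10.68 ± 0.69 in the earlier step and 1.10 ± 0.37 from 18 to 24 hpf, where it was not called (adjusted p = 0.092), a difference of -9.59 ± 0.86 (adjusted p = 7.74e-06). The water channel gene Aqp8 averaged 0.493, 258, 541 and 1119 CPM (difference -7.91 ± 0.79, adjusted p = 1.65e-05). The beta tubulin gene Btub5, like Aqp8, was called higher at 18 than at 12 hpf and not called afterwards. It averaged 0.548, 91, 177 and 288 CPM (difference -6.47 ± 0.75, adjusted p = 0.000106). Fabp2L2 did both, with 0.431, 223, 2228 and 3508 CPM and calls in both steps (log2 fold changes 8.99 ± 0.72 and 3.32 ± 0.51; difference -5.67 ± 0.89, adjusted p = 0.00117). Slc44a4, a carrier of the choline transporter family, and Gal3st1L_5, a sulfotransferase gene, also rose before 18 hpf (log2 fold changes 6.91 ± 0.58 and 5.84 ± 0.60) and were not called after it.

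Other genes rose more from 18 to 24 hpf than from 24 to 30 hpf. Msclact averaged 0.0753 ± 0.0687, 2.4 ± 0.853, 1417 ± 927 and 1032 ± 97.9 CPM at 12, 18, 24 and 30 hpf, and its log2 fold change exceeded that of the later step by 9.67 ± 0.78 (adjusted p = 9.57e-07). Clect_106 averaged 1.01, 3.03, 232 and 679 CPM (difference 4.69 ± 0.69, adjusted p = 0.00548; lost without 24 hpf C). Cdx averaged 0, 0.0928, 41.4 and 51.4 CPM (difference 8.35 ± 1.37, adjusted p = 0.019), a call kept without 24 hpf A alone among the single-library fits. The less expressed Isx copy averaged 0.149, 0, 8.21 and 15.2 CPM (difference 8.48 ± 1.11, adjusted p = 0.00548). MyoR2 averaged 0.135, 0.345, 24.7 and 14.4 CPM (difference 7.01 ± 1.26, adjusted p = 0.0276; kept without 18 hpf C or 24 hpf A alone). Cpa3 went on rising after 24 hpf, with 0.219, 0.74, 108 and 611 CPM, a later log2 fold change of 2.50 ± 0.60 (adjusted p = 0.0496), and no called difference between the steps (adjusted p = 0.0851).

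**Figure D5:**
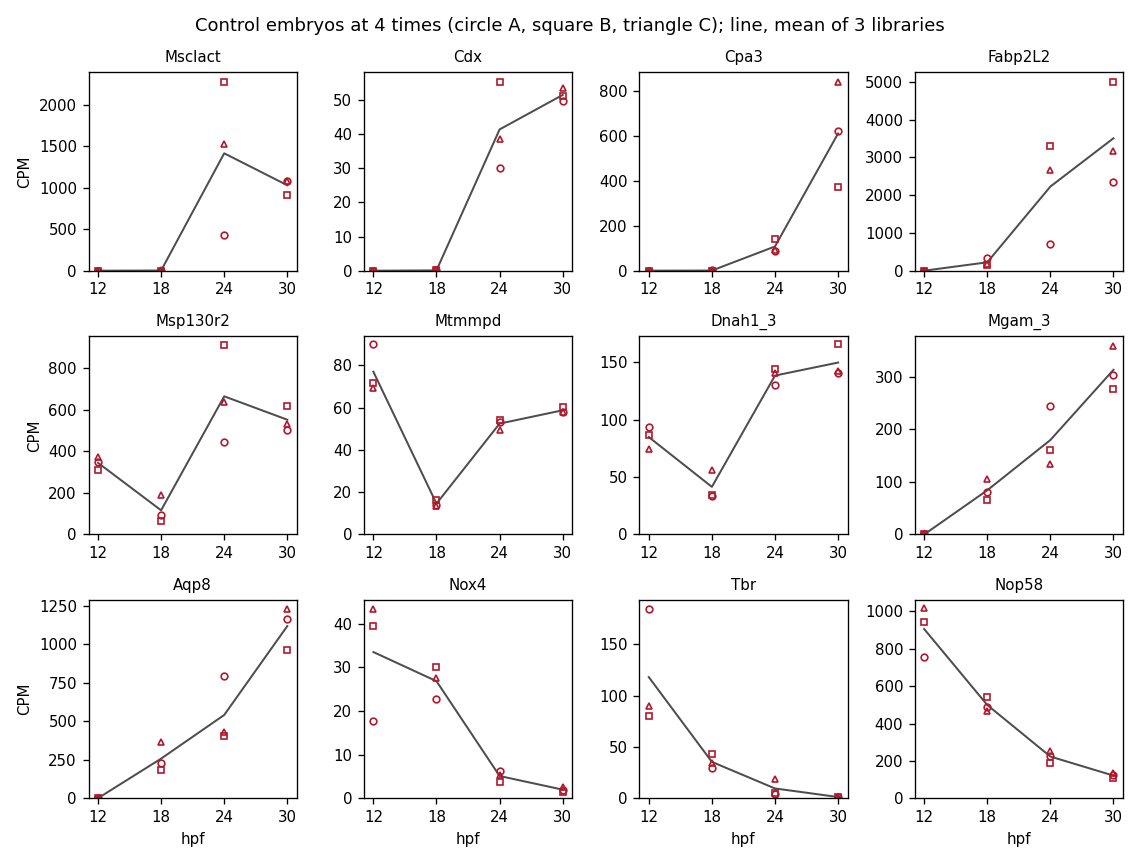
CPM of 12 genes in controls over the 4 times (12, 18, 24 and 30 hpf), with the circle for library A, the square for B and the triangle for C, and a line through the means of 3 libraries. Msclact and Cdx are near 0 up to 18 hpf and high from 24 hpf on, and Mtmmpd and Dnah1_3 have their lowest mean at 18 hpf. Mgam_3 and Aqp8 are near 0 at 12 hpf and climb at each later time, and Nox4, Tbr and Nop58 decline.

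Calls per list are set beside those over all genes tested, of which 8.46% rose and 6.47% fell between 12 and 18 hpf, 4.02% rose and 0.961% fell between 18 and 24 hpf, and 0.717% rose and 0.212% fell between 24 and 30 hpf. Skeletal matrix genes had 3 rises and 4 falls between 12 and 18 hpf, 7 rises between 18 and 24 hpf and no call between 24 and 30 hpf. Axonemal genes had 5 rises and 12 falls in the first of these steps, 15 rises in the second and 2 rises in the third. Muscle and coelom genes had 14 rises and 6 falls, then 8 rises, then 1 fall. Gut differentiation genes had 13 rises and 1 fall, then 7 rises, then 8 rises. Neurotransmission and neuropeptide genes had 15 rises and 2 falls, then 4 rises and 2 falls, then 5 rises. Ion channels had 30 rises and 6 falls between 12 and 18 hpf and 2 of each between 18 and 24 hpf. Whether the lists differed from all genes, or from each other, in their calls per step was not tested.

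Tbr and Nop58 fell over several steps. Tbr averaged 118 ± 57, 35.4 ± 6.94, 9.55 ± 8.29 and 1.21 ± 0.223 CPM at 12, 18, 24 and 30 hpf, with log2 fold changes of -1.73 ± 0.43, -1.89 ± 0.44 and -2.96 ± 0.51 over the 3 steps, all called. Nop58 averaged 906 ± 135, 499 ± 37.8, 223 ± 31.9 and 122 ± 14 CPM, with log2 fold changes of -0.86 ± 0.24, -1.16 ± 0.24 and -0.88 ± 0.24, of which the last was not called (adjusted p = 0.0986). Nox4 averaged 33.5, 26.8, 5.09 and 1.98 CPM, and its fall from 18 to 24 hpf was larger than its change before 18 hpf (difference -2.07 ± 0.53, adjusted p = 0.0496), a difference kept without 12 hpf C alone among the single-library fits.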

How the data were processed

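mRNA of whole control embryos, extracted with TRIzol and prepared with a DNBSEQ mRNA kit, was sequenced per the labels' protocols. The submitters' processing notes name STAR 2.7.1a. The genome build, annotation, counting tool and use of strand are not given in the sources used here, so overlapping and antisense genes may share reads. The authors deposited 1 table of raw counts per gene for the whole series, with symbols of S. purpuratus for 21650 of 27231 gene IDs. Reads without molecular identifiers are not independent molecules, so intervals on counts cover counting error only.

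Deposited counts were filtered with filterByExpr (minimum count 10), which left 18419 genes, and scaled by the trimmed mean of M-values in edgeR 4.0.16 (R 4.3.3). One mean for each of the 8 groups was fitted over all 23 libraries (15 residual degrees of freedom and a common biological variation of 0.423) with the robust quasi-likelihood method. The contrast was 24 minus 18 hpf, with Benjamini-Hochberg adjustment over all genes tested and a threshold of 0.05. All adjusted p-values not otherwise named come from this test. Differences between steps are contrasts in the same model. SEs of log2 fold changes were derived from the F statistic. Shares of counts were compared by two-sided exact permutation. The procedure was tested on simulated data with known changes.

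Genes named are those with the largest and most certain changes by fixed ranks, the top called members of lists, a set of landmark genes, and the largest differences between steps. The 50 lists and the genes were chosen with earlier results of these data known, and 5 lists (C-type lectins, hyalins, yolk and egg proteins, mobile elements, mitochondrial ribosome) were added after the symbols had been seen. Alternatives were DESeq2 1.42.0, 2 other scalings, no filter, fits of fewer libraries, a replicate block and leaving out single libraries.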

Additional observations from a re-analysis of the deposited data

Results flagged for a closer look

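Each gene here has a change from 18 to 24 hpf in control embryos that differed from its change in a neighbouring step by the edgeR test of the difference itself (log2 scale; adjusted p under 0.05). Adjacent steps share the libraries of the time between them, and no explanation was weighed.

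Compared with the step from 12 to 18 hpf, the change was more positive for Isx L_var_16864 by 13.1, for C10orf112L by 6.15, for Rfesd by 4.36, for Mtmmpd by 4.24, for Msp130r2 by 4.08, for Dnah1_3 by 2.77 and for Dnah9 by 2.64. C10orf112L averaged 0.599, 0.225, 7.04 and 136 CPM at 12, 18, 24 and 30 hpf, and its rise was followed by a larger gain in CPM in the next step (log2 fold changes 4.83 ± 0.50 and 4.27 ± 0.40). The value of Isx rests on no read at 18 hpf and on a mean of 0.149 CPM at 12 hpf, so its size depends on the prior count of the fit. The change was more negative, by differences of -9.59 for Mgam_3, -7.91 for Aqp8, -6.71 for GabrA, -6.57 for Gal3st1L_5, -6.47 for Btub5, -6.44 for Slc44a4, -5.67 for Fabp2L2 and -2.07 for Nox4. Of these differences, those of Dnah9 and Nox4 were lost in 6 and 8 of the 9 fits without a single library, and the others kept their calls in all 9.

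Compared with the step from 24 to 30 hpf, the change was more positive for Msclact by 9.67, for Isx L_var_16848 by 8.57 and L_var_16864 by 8.48, for Cdx by 8.35, for MyoR2 by 7.01, for the gene named My18A putative homolog by 5.11, for Clect_106 by 4.69 and for Lrp4L_6 by 4.16. Lrp4L_6 had 8.92, 6.96 and 5.41 CPM at 24 hpf and 1.11, 0.88 and 0.597 CPM at 18 hpf (log2 fold change 3.01 ± 0.47). Only Msclact and Isx L_var_16864 kept their calls in all 9 fits without a single library, and Clect_106 lost its call in 1 of them, without 24 hpf C. The differences of Isx L_var_16848, My18A putative homolog and Lrp4L_6 were each lost in 7 of the 9.

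GabrA, a GABA receptor gene, was the one gene with a more negative change than in the later step, by -3.74. It averaged 0.194 ± 0.0704, 11.4 ± 4.17, 6.1 ± 1.94 and 43.5 ± 7.64 CPM at 12, 18, 24 and 30 hpf, so that 2 called rises (log2 fold changes 5.81 ± 0.48 and 2.84 ± 0.35) stood on either side of a step without a call (-0.91 ± 0.34, adjusted p = 0.13). The difference was lost in 5 of the 9 fits without a single library, those without 18 hpf B, 24 hpf B, 24 hpf C, 30 hpf A or 30 hpf C.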

How the results depend on the processing

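The 918 genes changed from 18 to 24 hpf became 1609 with DESeq2 and 327 with the replicate block in the 6 libraries alone, and 386 to 863 without a single library. For at least 2-fold changes, 851 in all, the values were 1287 with DESeq2, 327 with that block and 384 to 828. The difference to the earlier step, 291 genes, was 695 with DESeq2, 155 with both libraries apart on the second component left out, and 134 to 482. That to the later step, 22 genes, was 100 with DESeq2, 34 in the 12 control libraries, 37 with both libraries left out, and 4 to 45. Other scalings, no filter and fits of 6 or 12 libraries kept the main count within 1.5 times (670 to 926), but the 177 falls became 85 in the 6 libraries alone, 112 with no filter and 20 with the block in the 6 libraries. Upper quartile scaling moved the median of all genes to -0.08 and gave 676 higher and 245 lower. Of the 741 rises and 177 falls, DESeq2 kept 735 and 176, the fit of the 6 libraries 486 and 68, and its block 294 and 17. Of 126 called genes named in the text, 70 kept the call without any single library and 54 under every alternative. Reversed signs, all of genes without a call, were those of Rfesd (0.3 without 18 hpf B, -0.4 to 0.3 without a single library) and Pks1 (-0.01 without 18 hpf A and -0.15 without 18 hpf B, -0.15 to 0.76 in all). The cause of these shifts was not tested.

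Replicate letters did not pair the samples: libraries with the same letter deviated from their group means with correlations of -0.271, -0.236 and -0.223, and no library correlated best with its own letter. The highest correlations joined other letters, with 0.639 for 24 hpf B and 18 hpf A, 0.594 for 24 hpf C and 18 hpf B, and 0.488 for 24 hpf A and 18 hpf C. No label pairs these libraries, and no fit was made with them paired. The block over all libraries gave 1093 genes. With 3 libraries a time and this spread between them, a gene without a call is not shown to be stable.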

Other observations

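Several lists outside the accounts above gave a few rises. Slc8a3, a sodium-calcium exchanger gene, had 168, 186 and 160.3 CPM at 24 hpf and 50.8, 45.8 and 90.8 CPM at 18 hpf (log2 fold change 1.46 ± 0.28, adjusted p = 0.00382). It was 1 of 3 rises among 50 genes of calcium, proton and bicarbonate transport (6%, against 4.02% of all genes tested). That list had 1 rise without 18 hpf A, 18 hpf B or 24 hpf C. Among 26 integrins, cadherins and adhesion genes 3 rose, and Cadherin had 40.2, 72.2 and 43.5 CPM at 24 hpf and 9.25, 9.84 and 8 CPM at 18 hpf (log2 fold change 2.52 ± 0.39, adjusted p = 0.000535). That count was 1 without 18 hpf B or 24 hpf B. Both genes kept their calls in the 6 single-library fits. Heat shock and folding genes gave 5 rises of 100 (5%, against 4.02% of all genes tested) with a median log2 fold change of -0.21, and 1 to 4 rises in those fits.

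Ion channels gave 2 rises and 2 falls of 101, cytochrome P450 genes 1 of each of 117 and antioxidant genes 1 of each of 57, shares of rises of 1.98%, 0.855% and 1.75%, against 4.02% of all genes tested. Ion channel rises numbered 4 without 18 hpf C and 1 without 18 hpf A, 18 hpf B or 24 hpf C, and there was no ion channel fall in any single-library fit other than that without 18 hpf C. Single-library fits made 1 P450 rise without 24 hpf A, 1 P450 fall without 18 hpf C or 24 hpf C, and no other P450 call. Antioxidant rises numbered 4 without 18 hpf C and 2 without 24 hpf A. Catalase (Cat) had 132, 217 and 250.0 CPM at 24 hpf and 98.5, 82.5 and 135 CPM at 18 hpf and did not pass (adjusted p = 0.0539), but was called higher without 18 hpf C or 24 hpf A and by DESeq2. DNA damage and apoptosis genes gave 2 rises of 60 (3.33%, against 4.02% of all genes tested). There was none without 18 hpf B or 24 hpf B and 1 without 18 hpf A, 18 hpf C or 24 hpf C. No call was made among 24 actins and actin-binding genes, 12 aboral ectoderm genes and 4 genes of hatching, for which edgeR gave 2 higher and 1 lower, 0 and 0, and 0 and 1 before adjustment (p under 0.05). DESeq2 called 1, 0 and 0 of them. Msclact and CskaI, both called higher, stand outside the actin list, so its share of counts is not that of all actin genes. That list took 0.482% ± 0.117 of counts at 24 hpf and 0.653% ± 0.0276 at 18 hpf (SD, n = 3 each; two-sided exact permutation p = 0.1).

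Grouped by the stem of their symbols, with at least 10 tested genes a stem, the families with the highest shares of rises were dynein heavy chains (dnah, 7 of 13), the naalad stem (5 of 14) and alpha tubulins (atub, 7 of 20). The highest share of falls was in gagpoll (4 of 14), a mobile-element stem. The carrier stem slc had 6 falls and 27 rises of 475 (1.26% and 5.68%), near the shares over all genes. The sulfotransferase stem chst had 4 falls and 1 rise of 50 (8% and 2%). Over all genes tested, 0.961% were lower and 4.02% higher. These families were picked after their counts had been seen.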
